A study of Mus musculus with 8 samples.

Results

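The variable gene segments of the immunoglobulin heavy chain, the Ighv genes, were examined in RNA sequencing libraries of mouse bone marrow B cells. Members were all genes of the deposited table whose symbol starts with Ighv and whose annotated biotype is IG_V_gene, which gave 113 of 46983 genes. Another 70 Ighv pseudogenes and 2 Ighv entries of a different biotype were left out. The series compared estrogen with its vehicle in 4 libraries each, called Estrogen 1 to 4 and Vehicle 1 to 4. All 8 libraries came from WT mice, were labelled bone marrow B cells sorted by MACS (magnetic bead selection), and carried the stress label Hypoxia. The labels do not state whether separate mice were used for each library, so p-values cover only the spread between libraries.

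A heavy chain is assembled in the developing B cell, where the RAG recombinase first joins a D to a J segment and then one of many V segments to that DJ unit. The chosen V segment supplies most of the antigen-binding domain, and its promoter then drives the rearranged chain, so that a mature transcript carries one V segment spliced to the constant region, usually that of Ighm in marrow. Read counts over the V genes therefore reflect how often each segment sits in a productive or nonproductive rearrangement, how strongly that rearrangement is transcribed, and any transcription of segments that have not yet rearranged.

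The members lie on chromosome 12, all on the minus strand, between positions 113578504 and 116000461 of GRCm38. The lowest coordinates are nearest to the D segments. The segment at that edge was Ighv5-2 (chr12:113578504-113578990), the first to be met from the D side. Numbers after Ighv name the sequence family, and the members fell into 16 families. Family 1 (the J558 group), with 53 members, filled the middle and distal parts of the locus, and families 5 and 2 alternated at the D-proximal edge. The last 36 annotated bases of 6 segments are given as examples of how alike or unlike segments can be, which bears on how surely a read can be given to one of them. Capitals run from the codon of the conserved cysteine, where the hypervariable junction begins, to the end of the segment. The transcript sequences are those of GENCODE M21.
Ighv1-26: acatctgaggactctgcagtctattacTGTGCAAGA
Ighv1-19: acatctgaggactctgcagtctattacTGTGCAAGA
Ighv9-3: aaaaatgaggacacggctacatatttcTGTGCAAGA
Ighv5-9-1: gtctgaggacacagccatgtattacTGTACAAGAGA
Ighv11-2: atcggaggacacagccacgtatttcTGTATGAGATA
Ighv12-3: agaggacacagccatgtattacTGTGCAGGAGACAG
The ends of Ighv1-26 and Ighv1-19 were identical, whereas those of the other 4 each differed from them and from one another. Across the members, a median of 21.9% of the 50-base windows of a transcript also occurred in transcripts of other genes, with a range from 0 to 97.4%, and 15 members shared more than 50% of their windows. How the authors' counting treated reads that fit several segments is not given in the sources used here. Values of members that share windows are therefore uncertain, most of all for those 15.

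Library totals ranged from 30181834 to 39088597 reads, and 3 reads, taken as the detection floor, equalled 0.078 to 0.102 CPM (reads per 1000000 reads of the TMM-scaled library). The floor and the Wilson intervals given below for shares take account of counting error only. They do not cover the spread between libraries. Markers of the B lineage were abundant, with 12 of 12 detected in every library and a summed level of 10528 to 16471 CPM in Vehicle and 8764 to 14461 CPM in Estrogen. Markers of other marrow cells were also present: neutrophil genes summed to 3493 to 9449 CPM in Vehicle and 3605 to 10130 CPM in Estrogen, and monocyte and macrophage genes to 1842 to 3235 and 1927 to 3859 CPM. No gene of the B lineage, neutrophil or monocyte lists was at 0 in any library. Vehicle 3 stood apart in sex-linked genes: the X-inactivation RNA Xist was at 2.39 CPM there and at 470 to 1441 CPM in the other 7 libraries, and the Y-linked Ddx3y was at 99.6 CPM there and at 0.581 CPM or less elsewhere. It also had the highest Vehicle level of neutrophil genes. Totals, shares and evenness are therefore also given without it.

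Ighv reads made up 0.110% to 0.173% of the libraries, and their total did not separate the groups. Summed over the 113 members, the level was 1834, 1528, 1403 and 1274 CPM in Vehicle 1 to 4. In Estrogen 1 to 4 it was 1758, 1056, 1499 and 1057 CPM. Estrogen 1 lay above 3 of the Vehicle libraries, while Estrogen 2 and Estrogen 4 lay below all of them, so the groups overlapped. The means were 1510 ± 240 CPM in Vehicle and 1342 ± 347 CPM in Estrogen (SD, n = 4 each), and the difference of -167 CPM was smaller than the pooled SD of 298 CPM. On the log2 scale the mean of the Estrogen libraries was 0.19 lower, a value that was -0.33 without Estrogen 1 and -0.09 without Vehicle 1, Estrogen 2 or Estrogen 4. It was -0.22 without Vehicle 3. In such bulk libraries, fewer B cells and less RNA per B cell cannot be told apart.

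Ighm and the kappa light chain V genes had the same highest and lowest libraries. Ighm, which encodes the constant region of the first heavy chain class made, was at 10393, 8424, 9437 and 7021 CPM in Vehicle 1 to 4 and at 9005, 5854, 7849 and 6199 CPM in Estrogen 1 to 4. The 100 kappa light chain V genes (Igkv) summed to 2337, 1832, 2061 and 1328 CPM in Vehicle and to 2171, 1047, 1631 and 1052 CPM in Estrogen. For Ighv, Ighm and Igkv alike, Vehicle 1 was the highest of all libraries, and Estrogen 2 and Estrogen 4 were the lowest. The summed B lineage markers were likewise highest in Vehicle 1 (16471 CPM) and lowest in Estrogen 2 and Estrogen 4 (8840 and 8764 CPM). Ighd, the constant gene of the class that follows in mature cells, did not keep this order: it was highest in Vehicle 2 (716 CPM) and lowest in Estrogen 2 and Vehicle 4 (447 and 449 CPM). The part of B cell content in the Ighv totals was not tested.

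Set against Ighm, the V gene reads were steadier. For every 100 Ighm reads there were 17.6, 18.1, 14.9 and 18.1 Ighv reads in Vehicle 1 to 4, and 19.5, 18.0, 19.1 and 17.05 in Estrogen 1 to 4. The group means of 17.2 ± 1.57 and 18.4 ± 1.11 (SD, n = 4 each) differed by less than the pooled SD of 1.36, and without Vehicle 3 the difference was 0.449. Vehicle 3 had the lowest ratio, and it also had the lowest summed level of pro-B and pre-B markers (881 CPM, where the remaining 7 libraries had 1158 to 1400 CPM). Whether these values are related was not tested. Against the light chain, Ighv reads numbered 68.1 to 95.9 per 100 Igkv reads in Vehicle and 80.9 to 101 in Estrogen, and these ranges overlapped too. Reads on Ighv pseudogenes, which cannot encode a working chain, came to 1.07% to 1.52% of the members' reads.

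**Figure D1:**
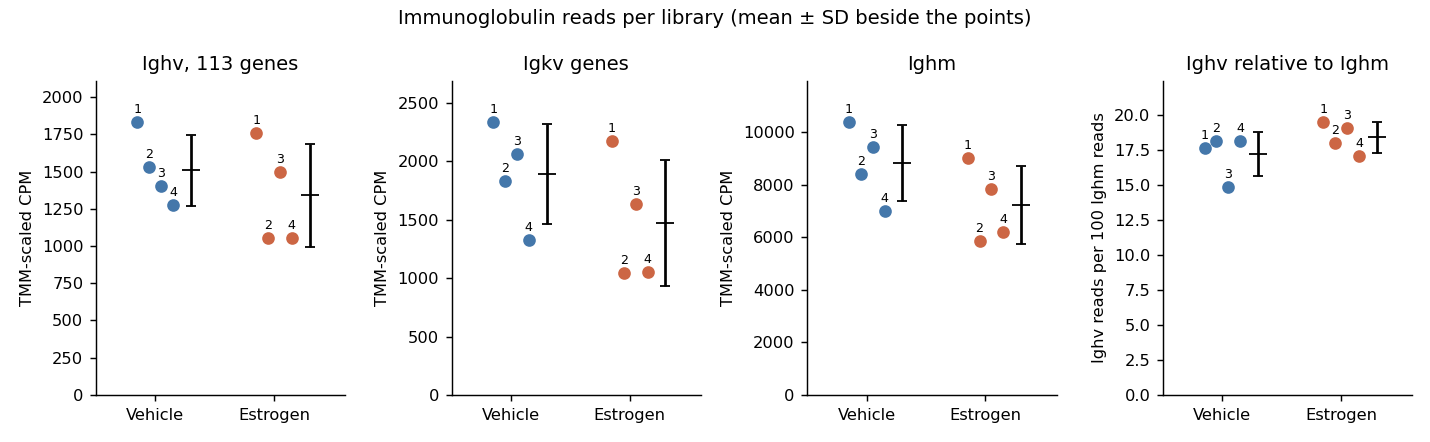
Levels of Ighv genes (113 members summed), Igkv genes, Ighm and the ratio of Ighv to Ighm reads, with 1 numbered point per library and the mean ± SD of 4 libraries beside the points. Vehicle 1 and Estrogen 1 are high and Estrogen 2 and Estrogen 4 are low for all 3 levels, and the groups overlap in every panel.

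Reads fell on nearly the whole set of V segments, although a read alone does not show that a segment was rearranged. Of the 113 members, 112 had at least 1 read, 104 had reads in every library, and only Ighv7-2 was without a read. Between 106 and 109 members had at least 1 read per library, and 103 to 107 reached the floor of 3 reads. Usage, taken here as the share of reads, was broad but uneven. Shannon evenness, which is 1 when every segment has the same share of reads, was 0.889, 0.884, 0.881 and 0.888 in Vehicle 1 to 4 and 0.886, 0.885, 0.885 and 0.885 in Estrogen 1 to 4. This equals 63.8 to 66.3 equally used segments in Vehicle and 65.0 to 65.3 in Estrogen, with means of 65.2 ± 1.11 and 65.1 ± 0.165 (SD, n = 4 each). Evenness did not separate the groups, and the Estrogen values all lay inside the Vehicle range. Without Vehicle 3 the difference in the effective number was -0.587 segments. The Igkv genes were used with a like evenness of 0.881 to 0.890. The 10 leading members of each library held 33.1% to 35.1% of Ighv reads.

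Ighv1-26 had the largest share of assigned reads in all 8 libraries. Of its windows, 49.0% also occur in transcripts of other genes, against a median of 21.9% over the members. This family 1 gene (ENSMUSG00000094546, chr12:114788372-114788805) took 6.56%, 6.70%, 6.98% and 7.08% of Ighv reads in Vehicle 1 to 4. In Estrogen 1 to 4 it took 6.41%, 6.72%, 6.94% and 7.19%. These shares hardly moved between libraries, and the group means were 6.83% ± 0.240 and 6.81% ± 0.334 (SD, n = 4 each). The widest 95% Wilson interval of any library ran from 6.92% to 7.47% in Estrogen 4. Its level was 120, 102, 98.0 and 90.2 CPM in Vehicle and 113, 70.9, 104 and 76.0 CPM in Estrogen, so it followed the Ighv total. The fitted log2 difference in level, Estrogen against Vehicle, was -0.18 ± 0.16 (SE; edgeR quasi-likelihood test, adjusted p = 0.860).

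Ighv9-3 came second in usage and was the only other member to reach 5% in any library. This family 9 segment (ENSMUSG00000096459, chr12:114140692-114141122) held 4.50%, 4.59%, 4.74% and 5.04% of Ighv reads in Vehicle 1 to 4 and 4.84%, 4.54%, 4.63% and 5.24% in Estrogen 1 to 4. The highest share in each group was that of replicate 4, and the groups overlapped. Its log2 difference in level was -0.14 ± 0.17 (SE; edgeR, adjusted p = 0.869).

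Per kilobase of annotated transcript, the mean level over all libraries was 276 CPM for Ighv1-26 and 193 CPM for Ighv9-3. The 8 members that followed were Ighv1-81, Ighv1-18, Ighv1-9, Ighv8-8, Ighv3-6, Ighv1-64, Ighv1-55 and Ighv1-82, which ran from 119 down to 90.8 CPM per kilobase. Of these, 6 belong to family 1, whereas Ighv8-8 and Ighv3-6 stand for families 8 and 3. Neighbours in that order were not resolved: the share of Ighv1-81 ran from 2.74% to 3.16% over the 8 libraries and that of Ighv1-18 from 2.50% to 3.24%. The median member stood at 23.0 CPM per kilobase. Fitted log2 differences in level of these 8 members lay between -0.28 for Ighv1-18 and -0.10 for Ighv1-9, with adjusted p from 0.860 to 0.899 (edgeR).

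**Figure D2:**
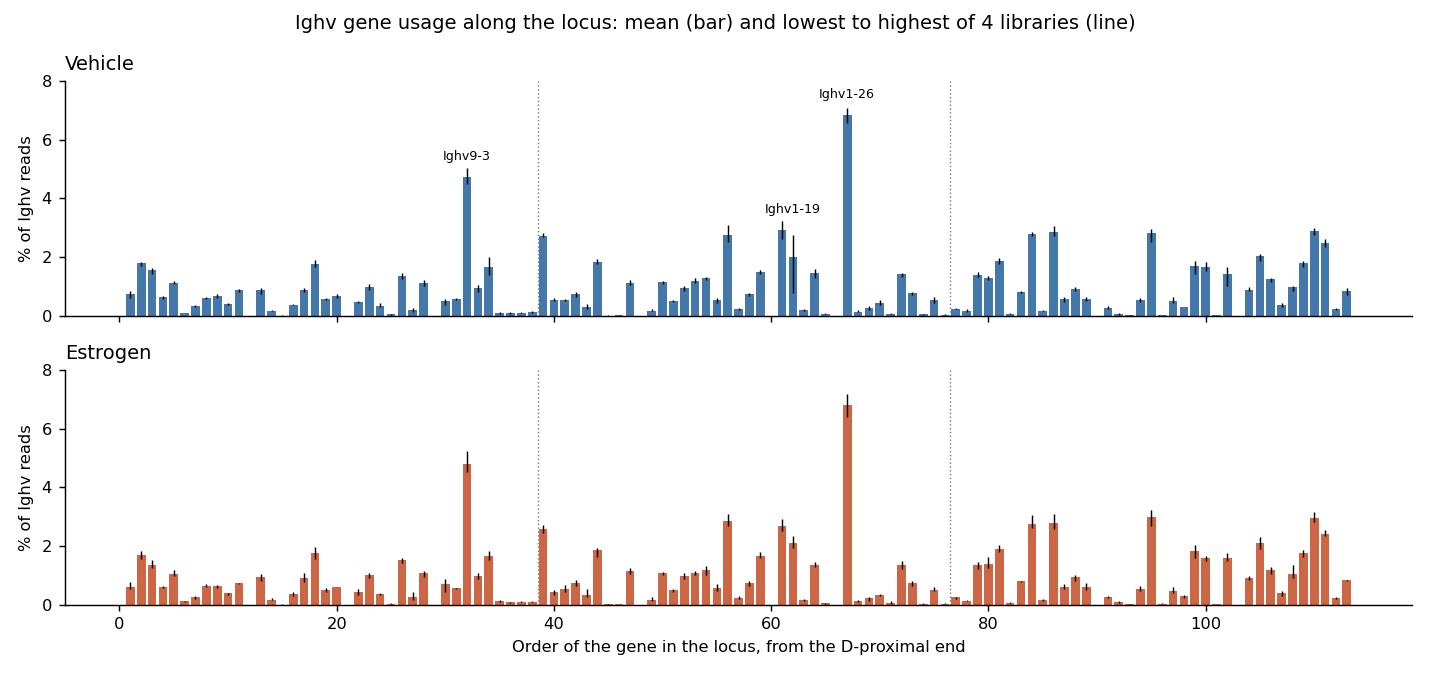
Share of Ighv reads of each of the 113 members in locus order, as the mean of 4 libraries (bars) with the lowest to highest library (lines), Vehicle above and Estrogen below; dotted lines divide the locus into 3 parts of 38, 38 and 37 members. Ighv1-26 and Ighv9-3 lead in both groups, and the long line at Ighv1-19 in Vehicle comes from its 0.781% in Vehicle 4.

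The usage pattern of any library was close to that of any other. For a pair of libraries, the share of reads that would have to move to another member to make the usage equal was 3.41% to 6.30% within groups (12 pairs, median 5.12%) and 3.73% to 6.28% between groups (16 pairs, median 5.09%). The correlation of member shares was 0.973 to 0.995 within groups and 0.982 to 0.994 between them, across members, which are not independent replicates.

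Family 1 dominated with 57.2% of Ighv reads on average, while it makes up 46.9% of the members. Weighted per kilobase of transcript, its part was 57.1%. Its share was 55.4% to 58.4% in Vehicle and 57.0% to 58.1% in Estrogen, and the difference in means was 0.542 points, or 1.02 points without Vehicle 3, with overlap in both cases. Family 5 (10 members) followed with 7.99%, family 9 with 6.41%, family 2 (the Q52 group) with 5.12%, family 8 with 4.92% and family 14 with 4.65%. Family 9 had only 4 members and so the highest share per member, 1.603%, against 1.08% in family 1 and 0.799% in family 5. At the other end, families 11 and 12 held 0.279% and 0.313%, and the single gene of family 16 had reads in Estrogen 3 alone, at 0.00388% of Ighv reads. The share of no family separated the groups.

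Family 5 came nearest to a difference between groups. It held 8.49%, 8.42%, 7.88% and 8.49% of Ighv reads in Vehicle 1 to 4, and 8.01%, 7.82%, 7.43% and 7.38% in Estrogen 1 to 4. Estrogen 1 lay above Vehicle 3, and all other Estrogen values lay below all Vehicle values. The mean was 8.32% ± 0.294 in Vehicle and 7.66% ± 0.306 in Estrogen (SD, n = 4 each), a difference of -0.66 percentage points against a pooled SD of 0.300. Leaving out any 1 library gave differences between -0.80 and -0.56 points, the former without Vehicle 3, whose removal also leaves the groups without overlap. All 9 tested members of the family had negative log2 differences in level, as had 91 of all 101 tested members (90.1%). The median was -0.28 in family 5 and -0.18 over all tested members, and 0 of the 9 passed the test. From the D-proximal edge outwards the values were -0.41 for Ighv5-2, -0.38 for Ighv5-4, -0.25 for Ighv5-6, -0.48 for Ighv5-9, -0.23 for Ighv5-12, -0.43 for Ighv5-9-1, -0.28 for Ighv5-15, -0.18 for Ighv5-16 and -0.16 for Ighv5-17, in no steady order.

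**Figure D3:**
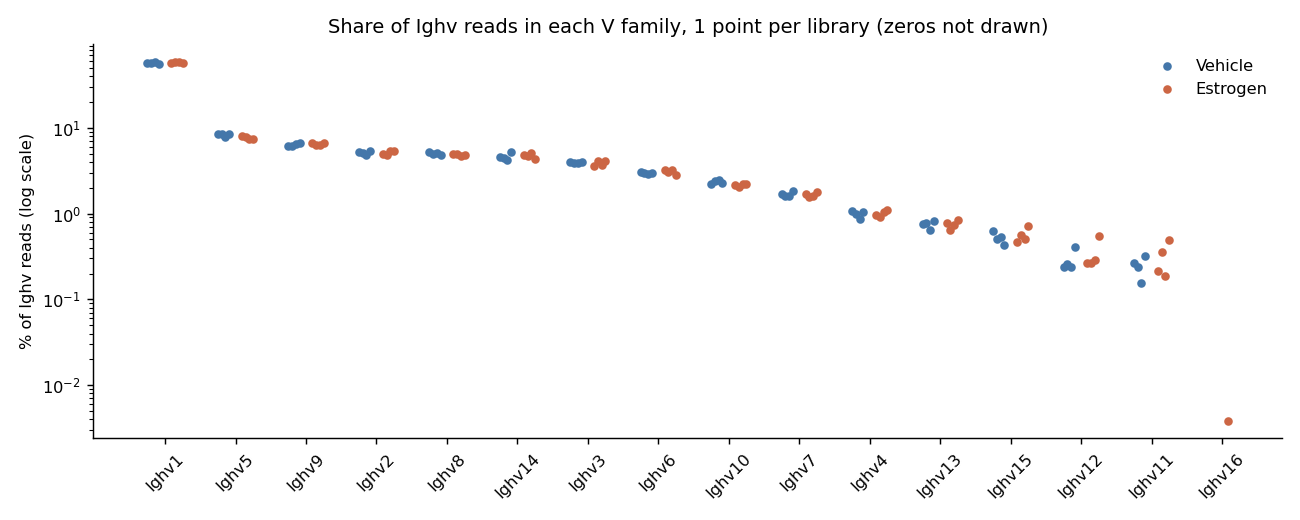
Share of Ighv reads in each V family on a log scale, with 1 point per library (Vehicle and Estrogen side by side, zeros not drawn). Family 1 lies at 55.4% to 58.4%, the family 5 points are lower in Estrogen with 1 overlap, and families 11 and 12 spread most among those with reads in every library.

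The D-proximal part of the locus held the smallest share of reads in every library. When the members were split by order into 3 parts, the D-proximal part held 25.9% to 29.1% of Ighv reads, the middle part 34.4% to 37.9% and the distal part 36.2% to 38.3% over the 8 libraries. The middle and distal ranges overlapped, and the D-proximal part holds no member of family 1. The typical D-proximal member, with a median share of 0.579%, was not lower than that of the middle part (0.535%). It was lower than that of the distal part (0.811%). Vehicle had 27.4% ± 1.34 in the D-proximal part and Estrogen 27.2% ± 0.336 (SD, n = 4 each), a difference of -0.162 points, or -0.668 points without Vehicle 3. In the distal part the means were 36.7% ± 0.632 and 37.3% ± 0.992, and the groups overlapped in each part.

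For single members, 101 were abundant enough to be tested. The remaining 12 held 0.0565% of Ighv reads together and had means of 0.271 CPM or less. None of the 101 was called between Estrogen and Vehicle (edgeR, adjusted p from 0.860 to 0.998), where 0% of all 15175 genes tested were called. DESeq2 also called 0 members (0.00659% of genes) and limma-voom 0 (0% of genes). At an unadjusted p under 0.05, edgeR had 1 member lower in Estrogen, with 1.26% of all genes lower at that level, and 0 members higher, with 2.27% of genes higher. Under DESeq2 and limma-voom, 2 members each (1.98% of those tested) had an unadjusted p under 0.05, namely Ighv5-9-1 and Ighv1-36, against 4.75% and 3.29% of all genes. The levels of 0 members were without overlap between the groups, against 0.771% of all genes lower and 0.896% higher in Estrogen.

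Of the 101 tested members, 91 had a lower fitted level in Estrogen and 10 a higher one, with 51.1% of all genes lower and 48.9% higher. Their median log2 difference was -0.18, in a range from -0.50 to 0.36, and the median over all genes was -0.01. Since the members share 1 cell source and 1 total, these values are not independent of each other. The median depended on single libraries: it was -0.04 without Vehicle 1, with 63 of 102 members lower, and -0.34 without Estrogen 1, with 96 of 101 lower. It was -0.09 without Estrogen 2 and -0.08 without Estrogen 4, each with 76 members lower. Without Vehicle 3 it was -0.22, with 97 of 102 members lower and 0 called (edgeR). Over the genes of the B lineage list, the median fitted log2 difference was -0.26, with 12 of 12 genes lower. For the list of immature and mature B cells it was -0.48, with 8 of 8 lower. The pro-B and pre-B list stood at 0.04. No gene of these lists was called, and their part in the Ighv values was not tested. The 95% interval of the difference excluded a 2-fold change in either direction for 85 of the 101 members.

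**Figure D4:**
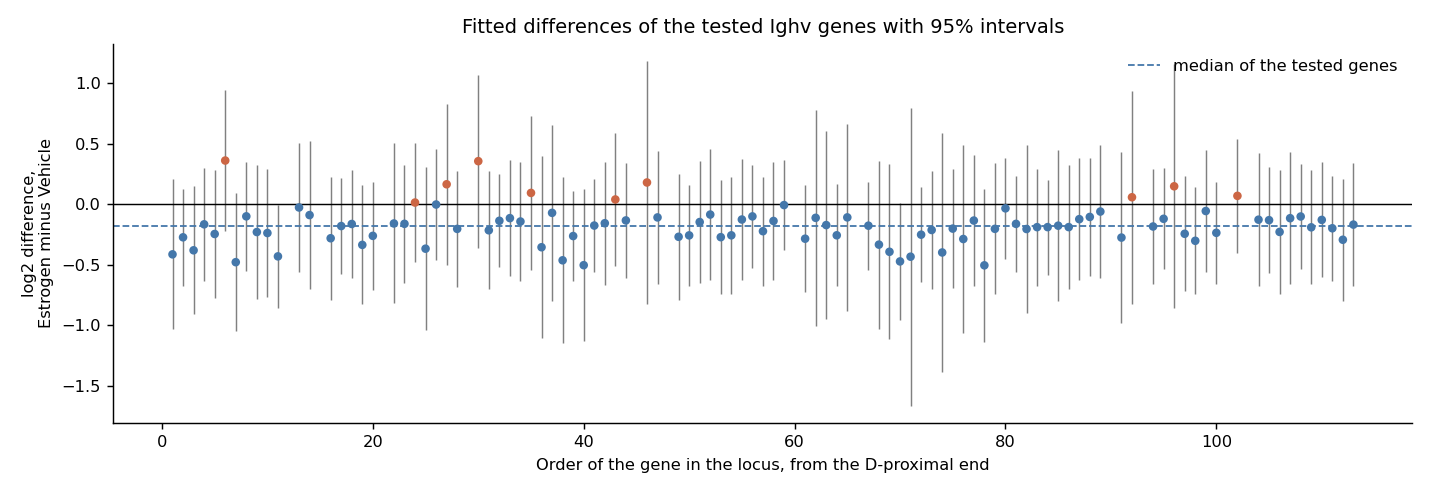
Fitted log2 difference in level (Estrogen minus Vehicle) of the 101 tested members in locus order, with 95% intervals as grey lines, positive values in orange, negative values in blue and the median of -0.18 dashed. Most points lie below 0 and almost all intervals cross it.

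The smallest p in the lower direction belonged to Ighv5-9-1, a family 5 segment near the D-proximal edge (chr12:113736111-113736630). Its level was 14.6, 13.99, 12.3 and 11.6 CPM in Vehicle 1 to 4 and 13.1, 7.82, 10.4 and 7.67 CPM in Estrogen 1 to 4. Only Estrogen 1 reached into the Vehicle range. The log2 difference was -0.43 ± 0.19 (SE; edgeR, unadjusted p = 0.049, adjusted p = 0.860). As a share of Ighv reads it was 0.798%, 0.915%, 0.875% and 0.911% in Vehicle and 0.747%, 0.741%, 0.692% and 0.726% in Estrogen, without overlap.

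Next in order of p were Ighv1-36 (log2 difference -0.47 ± 0.22), Ighv5-9 (-0.48 ± 0.25), Ighv9-4 (-0.50 ± 0.28) and Ighv8-5 (-0.50 ± 0.28), all with an adjusted p of 0.860 in edgeR. Ighv9-4, of the same family as the much used Ighv9-3, was at 9.51, 8.99, 8.36 and 6.44 CPM in Vehicle 1 to 4 and at 8.33, 3.61, 7.43 and 4.15 CPM in Estrogen 1 to 4. The Estrogen levels of replicates 2 and 4 were the low ones. On the upper side stood Ighv2-4 (0.36 ± 0.26), Ighv9-1 (0.36 ± 0.32), Ighv6-5 (0.18 ± 0.45), Ighv11-2 (0.17 ± 0.30) and Ighv1-72 (0.07 ± 0.21), with an adjusted p between 0.860 and 0.935. Ighv6-5 lay near the low end of what was tested, with 0.294 ± 0.125 CPM in Vehicle against 0.335 ± 0.114 CPM in Estrogen (SD, n = 4 each).

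Within the Ighv reads, the shares of 4 tested members did not overlap between groups. Ighv5-9-1 and Ighv9-4 were lower and Ighv2-4 and Ighv1-15 were higher in Estrogen, which is 2 of 101 tested members in each direction. When all genes tested were likewise divided by the Ighv reads of the library, 0.25% were without overlap and lower and 0.369% were so and higher. This is not a like background: the division takes out variation that the members share with their own total, but not that of other genes. No excess of members can therefore be read from these percentages. The share of Ighv1-15 was 1.41%, 1.46%, 1.54% and 1.504% in Vehicle 1 to 4 and 1.58%, 1.79%, 1.63% and 1.65% in Estrogen 1 to 4. Its level, by contrast, was nearly equal at 22.2 ± 2.73 and 22.1 ± 4.80 CPM (SD, n = 4 each). The share of Ighv2-4 was 0.0788% to 0.0943% in Vehicle and 0.104% to 0.144% in Estrogen.

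Ighv2-4 is hard to tell from Ighv2-2, and 55.5% of its windows also occur elsewhere. The transcripts of the pair were identical at 342 of 350 bases compared (97.7%). The 60-base stretch with the highest number of differences, 3 of 8, is shown with differing bases in capitals.
Ighv2-2: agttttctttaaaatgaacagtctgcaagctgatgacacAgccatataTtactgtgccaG
Ighv2-4: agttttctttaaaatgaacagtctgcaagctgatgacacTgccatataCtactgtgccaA
Ighv2-2 was far more used, at 1.55% to 1.82% of Ighv reads, and the sum of both was 1.80% to 1.91% in Vehicle and 1.68% to 1.96% in Estrogen, with overlap. Ighv1-71, a rare member that was not tested, also had shares without overlap, but on 7, 6, 5 and 5 reads in Vehicle 1 to 4 and 11, 14, 20 and 5 reads in Estrogen 1 to 4. It shares 97.4% of its windows, mostly with Ighv1-62-2, from which it differed at 1 of 359 bases.

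Beyond the comparison of groups, some members varied between libraries far more than counting allows. The chi-square of a member's reads over the 8 libraries, divided by its degrees of freedom, is about 1 when shares differ by counting error alone. Its median was 2.91 over the 101 tested members, with 24 members under 2 and 6 over 10. The typical share varied by 10.9% between libraries (coefficient of variation, median), and the lowest and highest values were 2.99% and 44.8%. Those over 10 were Ighv1-19, Ighv9-1, Ighv1-72, Ighv11-2, Ighv12-3 and Ighv1-18. This measure grows with read number: the share of Ighv1-18 varied by only 9.11%, less than that of the typical member.

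Ighv1-19 stood out most, with a chi-square of 70.2 per degree of freedom. This family 1 segment (ENSMUSG00000096410, chr12:114708648-114709135) had 1401, 1269, 1376 and 332 reads in Vehicle 1 to 4 and 1130, 736, 1205 and 646 reads in Estrogen 1 to 4. As a share of Ighv reads this was 2.30%, 2.16%, 2.76% and 0.781% in Vehicle and 2.19%, 1.97%, 2.33% and 1.94% in Estrogen. Vehicle 4 alone was low, and its 95% Wilson interval of 0.702% to 0.870% did not reach the interval of any other library. The group means of its level, 30.96 ± 14.5 CPM in Vehicle and 28.7 ± 9.39 CPM in Estrogen (SD, n = 4 each), did not differ beyond this spread.

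The nearest relative by shared windows was Ighv1-34, which was identical to Ighv1-19 at 371 of 388 bases (95.6%). The 60-base stretch with the highest number of differences, 7 of 17, is given with differing bases in capitals.
Ighv1-19: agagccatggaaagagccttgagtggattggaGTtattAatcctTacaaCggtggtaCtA
Ighv1-34: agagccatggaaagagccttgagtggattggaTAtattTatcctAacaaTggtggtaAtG
Ighv1-34 held 0.254% of Ighv reads in Vehicle 4, inside its range of 0.138% to 0.317% over the 8 libraries, and the sum of both was lowest in Vehicle 4 as well (1.04%, against 2.08% to 3.08% elsewhere).

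Ighv1-72 showed a like pattern in a different library. Its share was 0.997%, 1.56%, 1.43% and 1.65% in Vehicle 1 to 4 and 1.63%, 1.55%, 1.77% and 1.48% in Estrogen 1 to 4, so that Vehicle 1 was the low one. The near-identical Ighv1-62-3, the same at 393 of 396 bases (99.2%), held 0.0854% in Vehicle 1, and the pair together was again lowest there, at 1.08% against 1.46% to 1.83% elsewhere. Of the windows of Ighv1-72, 92.5% also occur in other genes, and 68.3% occur in Ighv1-62-3. The sum of the pair therefore does not cover every segment that its reads could fit. Ighv9-1 ranged from 0.371% in Vehicle 2 to 0.882% in Estrogen 2, and its shares were 0.492% ± 0.0866 in Vehicle and 0.697% ± 0.201 in Estrogen (SD, n = 4 each), with Estrogen 4 (0.444%) inside the Vehicle range.

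Ighv11-2 and Ighv12-3 varied in part together. In mice both segments are known from the antibodies to phosphatidylcholine that B-1 cells make, a self-renewing B cell type best known from the body cavities. Ighv12-3 held 0.241%, 0.259%, 0.241% and 0.409% of Ighv reads in Vehicle 1 to 4 and 0.263%, 0.262%, 0.289% and 0.543% in Estrogen 1 to 4. Replicate 4 of each group was the high one, and the other 6 libraries lay within 0.241% to 0.289%. Ighv11-2 was at 0.217%, 0.189%, 0.122% and 0.266% in Vehicle and at 0.184%, 0.315%, 0.155% and 0.429% in Estrogen. Its highest share in each group was also that of replicate 4, followed in Estrogen by replicate 2. For Ighv12-3 the levels were 5.22 CPM in Vehicle 4 and 5.74 CPM in Estrogen 4, where the remaining libraries had 2.77 to 4.62 CPM, so it was higher there in absolute level as well. This did not hold for Ighv11-2 in Vehicle. It had 113 reads in Vehicle 4 and 132 in Vehicle 1, where 3 reads equalled 0.0899 and 0.0903 CPM, so Vehicle 1 had the higher level. In Estrogen, Estrogen 4 had the most Ighv11-2 reads, 143 against 80 to 118. The group difference in level was small for both genes (Ighv12-3 0.04 ± 0.25, Ighv11-2 0.17 ± 0.30; SE, edgeR, adjusted p = 0.969 and 0.897).

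Among markers of other cells, Siglech, a surface receptor of plasmacytoid dendritic cells, was likewise highest within each group in replicate 4, with 933 CPM in Vehicle 4 and 1401 CPM in Estrogen 4. The whole list of 6 genes summed to 3440 and 4388 CPM there, against 2740 to 2918 CPM in the rest of Vehicle and 3058 to 3718 CPM in the rest of Estrogen. Bst2 and Klk1, of the same list, went the other way. Bst2 was lowest of all libraries in Vehicle 4, at 351 CPM. Klk1 was lowest of the Vehicle libraries in Vehicle 4 (36.8 CPM), and Estrogen 4 (48.0 CPM) lay below Estrogen 1 (79.8 CPM). The list of 13 T and NK cell genes also summed highest in replicate 4 of each group, at 189 and 246 CPM. However, Cd8a (91.4 and 133 CPM) and Cd4 (74.4 and 100.5 CPM) made up most of that sum. The defining T cell gene Cd3e reached only 0.539 CPM in Vehicle 4 and 0.222 CPM in Estrogen 4. The part of cell composition in the shares of Ighv11-2 and Ighv12-3 was not tested. Of the 10 plasma cell markers, 9 were tested and none was called (edgeR), and Jchain, which joins secreted antibodies, was at 0.282 to 1.84 CPM over the 8 libraries.

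**Figure D5:**
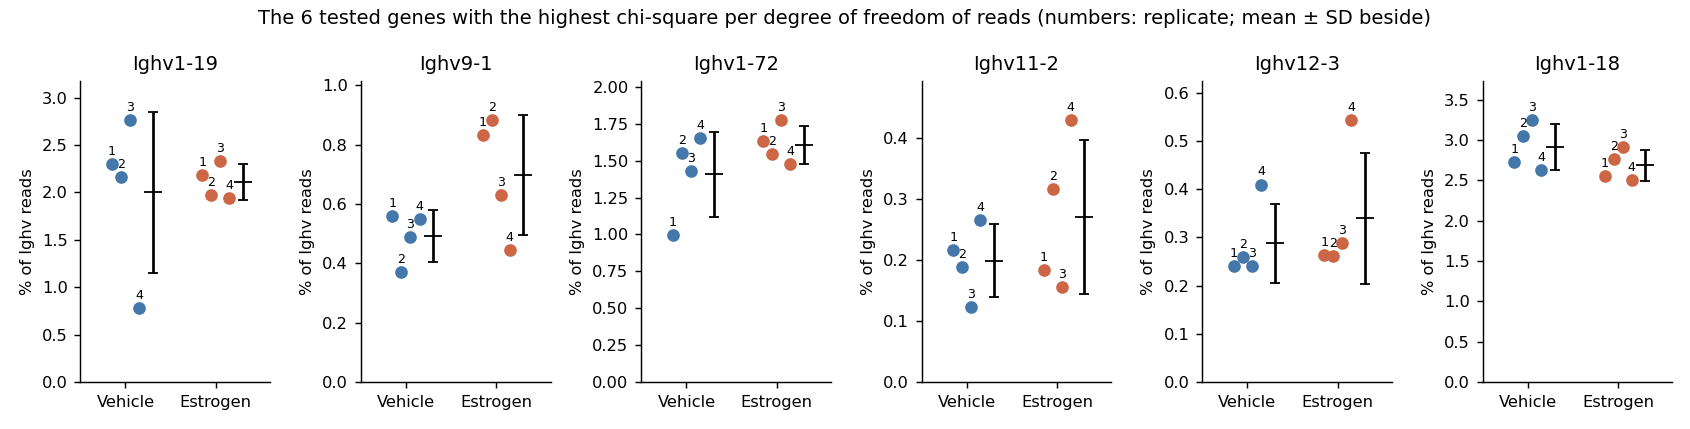
Share of Ighv reads of the 6 tested members whose chi-square divided by its degrees of freedom was over 10, with 1 numbered point per library and the mean ± SD of 4 libraries beside the points. Ighv1-19 is low in Vehicle 4, Ighv1-72 is low in Vehicle 1, and Ighv12-3 is high in replicate 4 of both groups.

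The machinery that assembles and expresses heavy chains was compared over a list of 30 genes, all of them tested. None was called (edgeR), 7 had higher and 23 lower fitted levels in Estrogen, and the median log2 difference was -0.06 against -0.01 over all genes. The smallest p values were those of Nhej1, the XLF end-joining factor, and Polm, the polymerase mu that fills in ends. Nhej1 had a mean level of 5.83 ± 1.45 CPM in Vehicle against 4.21 ± 0.268 CPM in Estrogen (SD, n = 4 each), with a log2 difference of -0.47 ± 0.20 (SE; edgeR, adjusted p = 0.860). Polm stood at 210 ± 1.55 and 181 ± 29.7 CPM. Dntt, the transferase that adds untemplated bases at the V, D and J junctions, was at 70.6, 72.4, 54.3 and 72.2 CPM in Vehicle 1 to 4 and at 80.3, 84.9, 59.2 and 98.5 CPM in Estrogen 1 to 4. Estrogen 3 lay inside the Vehicle range while the other 3 Estrogen libraries lay above it, with a log2 difference of 0.26 ± 0.16 (SE; edgeR, adjusted p = 0.860).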

How the data were processed

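Messenger RNA of 8 libraries was counted. The authors deposited raw read counts per Ensembl gene, with no normalization applied. CASAVA, Bowtie 0.12.2 and the build mm10 are named in the notes on processing given by the submitters. Not given in the sources used here are which counter and annotation were used, whether strand was considered and how multi-mapping reads were handled.

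Columns were assigned by the descriptions in the labels and groups by the treatment label. Symbols, biotypes and coordinates came from GENCODE M21 (GRCm38), which matched 46488 of 46983 identifiers (98.9%). Counts were filtered with filterByExpr, TMM-scaled and fitted by group with edgeR 4.0.16 (robust quasi-likelihood test, two-sided, R 4.3.3), with Benjamini-Hochberg adjustment over 15175 genes and a threshold of 0.05. DESeq2 1.42.0 and limma-voom (limma 3.58.1) were alternatives. The procedure was tested on simulated data. Evenness is the Shannon entropy of member shares divided by the logarithm of the number of members with reads. Totals, shares and evenness were given no test, since the members and lists were chosen with earlier results of these data known.

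Named members were the 10 with the highest mean CPM, any with 5% of Ighv reads in a library, the 5 smallest p in each direction and the D-proximal-most. Ighv1-19, Ighv12-3, Ighv1-15, Ighv1-71, further family 5 genes and all paired relatives were chosen after their values were seen. Recombination signals and promoter octamers were planned but not analysed here. Figures used matplotlib 3.10.9.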

Additional observations from a re-analysis of the deposited data

Results flagged for a closer look

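Among 176 sets of 4 libraries examined for a value far from the other 3, 12 were found, where chance gives about 1 in 20. The sets are not independent: evenness and effective number, for example, state the same measure in different forms. No excess over chance can therefore be read from this count, and the values are listed as description only. In Vehicle 3 there were 14.9 Ighv reads per 100 Ighm reads, against 17.6 to 18.1 in the other Vehicle libraries, and family 5 held 7.88% of Ighv reads, against 8.42% to 8.49%. In Vehicle 4, 106 members had a read, against 107 in each of the others, Ighv1-64 held 2.51% of Ighv reads, against 2.92% to 2.96%, and the Igkv genes had an evenness of 0.881 and an effective number of 57.9, against 60.01 to 60.4. Ighv8-8 held 3.07% in Vehicle 1, against 2.73% to 2.79%. Ighv12-3, the only member of family 12, accounts for 4 of the 12, since gene and family are the same reads: it held 0.409% in Vehicle 4, against 0.241% to 0.259%, and 0.543% in Estrogen 4, against 0.262% to 0.289%. Family 16 had reads in Estrogen 3 alone (0.00388%).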

How the results depend on the processing

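The count of called members was 0 under every setting that was run, including other scalings, filters, tests, a threshold of 0.1 and each library left out. Totals, evenness, family 1 share and locus shares moved by less than the spread between libraries in all their alternatives. Leaving out each library in turn moved the log2 difference of the total between -0.33 and -0.09, the difference in the effective number of genes between -0.59 and 0.24 genes, that in the family 1 share between 0.03 and 1.02 points and that in the D-proximal share between -0.67 and 0.40 points. The direction of 6 named members changed: Ighv1-81 ranged from -0.33 to 0.0192, Ighv1-64 from -0.27 to 0.0199, Ighv1-9 from -0.24 to 0.0251, Ighv11-2 from -0.0131 to 0.35, Ighv6-5 from -0.0756 to 0.37 and Ighv1-72 from -0.0919 to 0.21 on the log2 scale, and the cause was not tested. Without the libraries numbered 1 of both groups, an alternative chosen after seeing the data, Ighv1-72 was at -0.13.

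The replicate numbers were not taken to pair the libraries in the main fit, and whether they do was not settled. Deviations of same-numbered libraries correlated at 0.67, -0.13, 0.08 and 0.55 for numbers 1 to 4. Those of differently numbered libraries correlated at -0.62 to 0.40. Vehicle 3 and Estrogen 3 differed in Xist, at 2.39 and 759 CPM. With the number as a block, 0 members were called, 7 had an unadjusted p under 0.05 (6.93% of members, with 14.3% of all genes) against 1 without it (0.990%, with 3.53%), and the median log2 difference was -0.19. Members with few reads or near-identical relatives are the least certain.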
